A study of Mus musculus with 12 samples.

Results

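The rodent miRNA families miR-466, miR-467, miR-669 and miR-297 were followed through 12 small RNA libraries from the colon and blood of 6 mice in a model of ulcerative colitis (UC). The members were chosen by name and by readout: every row of the deposited miRNA count table whose name begins with one of these 4 family names, followed by a letter or a hyphen, and that held at least 1 count over the 12 libraries. Of 80 names that matched, 20 had no count, which left 60 members of 1978 rows in the table (1405 rows with at least 1 count). Rows with identical counts in all 12 libraries cannot be told apart by their counts and were taken as 1 signal, so the 60 members gave 47 signals. Such rows can differ in sequence: miR-466k, miR-466p-5p and miR-669e-3p, with 1 count each, form 1 signal, which is placed by its first name, miR-466k. miR-466a-3p and miR-466e-3p have the same mature sequence but unequal counts (123 and 203 over all libraries), so they stand in separate signals, and some reads may enter a sum over signals more than once. The selection used the total count only, and no member was selected on its difference between groups, although results of these data were known when the family was chosen.

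All mice were male C57BL/6, aged 8 weeks. DSS mice drank 1.5% dextran sulfate sodium (DSS), a polymer that injures the colonic epithelium, for 7 days and were killed on day 8, while control mice received no DSS. Each group held 3 mice, with 1 blood and 1 colon library from each mouse, and the sequenced mice had been selected on their disease activity from a larger set. DSS colitis is a chemical injury of whole colon tissue, so a lower level of an miRNA in bulk colon can reflect fewer cells of one type or less of the miRNA per cell, and these cannot be told apart.

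The sample records disagree with each other on the groups. Mice 1, 7 and 9 are taken here as DSS and mice 2, 4 and 8 as control, after the arrangement of the named samples in the published expression display. The disease state recorded with the samples instead puts mice 1, 2 and 4 in UC and mice 7, 8 and 9 in control. Under the recorded disease state no row of the table was significantly differentially expressed (SDE) in colon or in blood by edgeR, with 20 rows in colon and 14 in blood at an unadjusted p under 0.05, and the median log2 fold change of the family in colon was 0.30 rather than -0.96. Every direction given for DSS below depends on the first grouping. The source name and the tissue field of every sample also name opposite tissues. The tissue field was used, and the marker miRNAs went with it: the 4 erythroid miRNAs summed to 287255 to 577392 CPM (counts per 1e+06 counts of the library) in the libraries called blood and to 1690 to 2571 CPM in those called colon, and the 9 epithelial miRNAs to 950 to 1324 CPM and 55653 to 204162 CPM.

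A miRNA is cut from a hairpin precursor, whose left and right strands give the 5p and 3p arms. Bases 2 to 8 from the 5' end, the seed, pair with target mRNAs, and miRNAs with the same seed are expected to share targets. The miR-466, miR-467, miR-669 and miR-297 hairpins lie in tandem in an intron of Sfmbt2, a polycomb-group gene that is imprinted and expressed from the paternal allele in the placenta. The cluster is found in rodents, and its hairpins belong to repeated units with runs of alternating U and G or C and A.

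In the mouse genome (GRCm38, GENCODE M21) Sfmbt2 spans chr2:10370510-10595253 on the plus strand, and 71 of the 81 annotated hairpins of the 4 families lay inside it on the same strand, at chr2:10466663-10518279. None overlapped an exon, and all of them sat in intron 10 of a transcript with 23 exons. By sequence, 49 members matched only hairpins inside Sfmbt2, 4 matched hairpins inside and outside it, and 7 matched hairpins elsewhere only (miR-466i-3p, miR-466i-5p, miR-466j, miR-466k, miR-466q, miR-467h and miR-669n). The repeats set what can be resolved. The sequence of miR-467a-5p occurred in 12 annotated hairpins and that of miR-669a-5p in 15, whereas miR-467c-5p, miR-467d-5p, miR-467e-5p, miR-669c-5p, miR-669l-5p and miR-669o-5p each had 1.

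The mature sequences below, as deposited with the counts, are those on which the comparisons turn, with the seed in capitals. The first 5 show how the miR-467 5p arms differ, the next 5 are miR-669 5p arms named in the comparisons, and the last 4 are the best counted signals that are not of the 5p arm.
miR-467a-5p: uAAGUGCCugcauguauaugcg
miR-467b-5p: gUAAGUGCcugcauguauaug
miR-467c-5p: uAAGUGCGugcauguauaugug
miR-467d-5p: uAAGUGCGcgcauguauaugcg
miR-467e-5p: aUAAGUGUgagcauguauaugu
miR-669a-5p: aGUUGUGUgugcauguucaugucu
miR-669p-5p: aGUUGUGUgugcauguucaugucu
miR-669c-5p: aUAGUUGUguguggaugugugu
miR-669l-5p: aGUUGUGUgugcauguauaugu
miR-669o-5p: uAGUUGUGugugcauguuuaugu
miR-466a-3p: uAUACAUAcacgcacacauaaga
miR-466b-3p: aUACAUACacgcacacauaaga
miR-466g: aUACAGACacaugcacacaca
miR-669a-3p: aCAUAACAuacacacacacguau

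miR-467a-5p and miR-467b-5p had identical counts in every library, and their sequences are 1 base out of step, so their seeds read AAGUGCC and UAAGUGC although the reads could not be assigned to one or the other. miR-467c-5p and miR-467d-5p share the seed AAGUGCG and differ from each other by 2 edits along the whole sequence, and each also differs from miR-467a-5p by 2. miR-669a-5p and miR-669p-5p have the same sequence and the same counts. Outside the family, the seed of miR-467a-5p occurred in miR-292a-3p, a miRNA of embryonic stem cells, which had 1 count over all libraries, that of miR-467e-5p in miR-668-5p, with 1 count, and that of miR-466e-5p in miR-1187, with 2 counts. The seeds of the family were thus represented in these tissues almost wholly by its own members.

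The family is marked by its composition. The dinucleotides UG, GU, CA and AC made up a median of 61.9% of the dinucleotides in the 60 members against 28.6% in the 1405 sequences counted, and 36 of the 42 sequences above 60% were members, a limit set after the values had been seen. miR-466i-5p, with 20 bases of uninterrupted repeat, matched 61 annotated hairpins outside Sfmbt2. The miR-467 5p arms were less repetitive, from 28.6% in miR-467d-5p to 47.6% in miR-467c-5p.

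The family was scarce. The libraries held 15060553 to 20106226 miRNA counts in colon and 21127134 to 32944792 in blood, of which the 47 signals took 3023 counts in colon and 994 in blood. The miR-486-5p rows (miR-486a-5p and miR-486b-5p, summed) alone took at least 74.7% of the counts in each blood library and at most 0.4% in each colon library. A read may be counted in both rows, and every blood total exceeds the range of mapped reads per sample that the authors report. The blood totals, on which CPM and floors rest, may therefore hold some reads more than once. Of the 60 members, 57 were counted in colon and 46 in blood, 14 in colon alone and 3 in blood alone. A single count was all there was for 7 members, and 12 had 2 to 10, while 10 signals (16 rows) exceeded 100. A floor of 3 counts corresponded to 0.149 to 0.199 CPM in the colon libraries and to 0.091 to 0.142 CPM in the blood libraries, so most single members lay near the limit of these libraries. Intervals and floors cover counting error only.

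In colon, the family taken as a sum was lower in DSS mice. The summed level over the 47 signals was 16.8, 22.2 and 22.7 CPM in DSS mice 1, 7 and 9, and 39.7, 39.8 and 34.8 CPM in control mice 2, 4 and 8. No DSS library reached the lowest control library, and the mean of the DSS mice, 20.6 ± 3.23 CPM (SD, n = 3), was 0.54 of the control mean, 38.1 ± 2.85 CPM (SD, n = 3). CPM are scaled here by the trimmed mean of M-values (TMM) within each tissue. Scaled by the total count alone, the CPM of the groups came closer but still did not overlap, at 15.6, 23.09 and 29.15 in DSS mice and 38.79, 37.27 and 30.59 in control mice. The ratio was 0.53 for the 23 signals of the 5p arm and 0.54 for the 17 of the 3p arm, and the difference between arms was not tested. For the 7 signals with no arm in the name it was 0.74, and the groups overlapped (0.430 to 0.735 CPM in DSS mice and 0.483 to 1.40 CPM in control mice). Scaled by the total count alone, the 5p arm still did not overlap (13.3 to 22.9 CPM in DSS mice and 25.5 to 30.8 CPM in control mice), whereas the 3p arm did (1.93 to 5.32 and 4.52 to 7.24 CPM). miR-466a-3p, whose reads may be counted in the miR-466b-3p signal as well, made up 0.215 to 1.09 CPM of these sums. By family the ratios were 0.52 for miR-467, 0.58 for miR-669, 0.53 for miR-466 and 0.48 for the sparse miR-297, whose 3 signals overlapped between the groups.

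**Figure D1:**
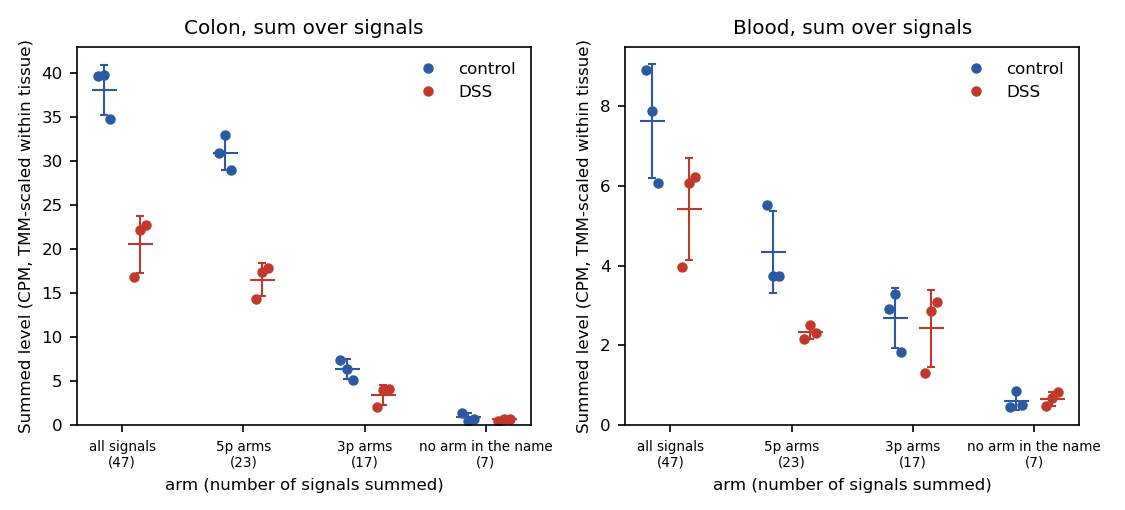
Summed level of the family by library, in CPM scaled by TMM within each tissue, for all 47 signals and for those of the 5p arm, the 3p arm and with no arm in the name, in colon (left) and blood (right). Points are single mice and bars the mean ± SD of 3 mice. In colon the 3 DSS mice (16.8 to 22.7 CPM in all) lie below the 3 control mice (34.8 to 39.8 CPM), also for each arm. The groups overlap in colon for the signals with no arm in the name. In blood, among the sums shown, the groups separate for the 5p arm only (2.16 to 2.52 and 3.73 to 5.53 CPM), and they overlap there when scaled by the total count alone.

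The comparison of DSS with control colon asks which miRNAs change in the inflamed tissue. A miRNA was called SDE at a fold change (FC) over 1.5 and an adjusted p (padj) of at most 0.05, by the quasi-likelihood test of edgeR, with p adjusted by Benjamini-Hochberg over the 542 rows that passed the filter on low counts. The filter kept 17 members (11 signals). In all, 5 members (3 signals) were SDE, lower in DSS in each case: miR-467a-5p/miR-467b-5p, miR-467e-5p and miR-669a-5p/miR-669p-5p, where 4.24% of all rows tested were SDE and lower. All 11 signals had a negative log2 fold change, with a median of -0.96 over the signals and 0.04 over all rows tested. DESeq2 also called 3 signals lower (6.30% of the 540 rows with a DESeq2 padj), with miR-467c-5p in place of miR-669a-5p/miR-669p-5p, whose DESeq2 padj was 0.0552.

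The miR-467a-5p/miR-467b-5p signal was the most abundant of the family in colon, with 4.08, 3.38 and 3.68 CPM in DSS mice 1, 7 and 9 and 6.60, 7.85 and 6.46 CPM in control mice 2, 4 and 8. The groups did not overlap, and its log2 fold change was -0.91 (SE 0.18, edgeR padj = 0.0431). DESeq2 gave a padj of 0.00447 for the same signal.

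miR-467e-5p, which comes from a single hairpin (Mir467e, chr2:10505721-10505807, plus strand), had 1.15, 1.58 and 1.78 CPM in the DSS mice and 3.4, 2.90 and 3.45 CPM in the control mice. All DSS mice were below all control mice, with a log2 fold change of -1.09 (SE 0.24, edgeR padj = 0.0431). The miR-669a-5p/miR-669p-5p signal stood at 0.860, 1.01 and 1.35 CPM in the DSS mice and at 2.27, 2.29 and 2.13 CPM in the control mice, a narrow control range. Its log2 fold change was -1.03 (SE 0.26, edgeR padj = 0.0491).

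A further 6 signals had an unadjusted p under 0.05 in edgeR and did not pass the adjusted threshold. Together with the SDE signals they made 9 of the 11, where 12.7% of all rows tested were lower at that p. miR-467c-5p (Mir467c, chr2:10473931-10474027) had 1.43, 2.93 and 2.98 CPM in the DSS mice and 5.07, 6.16 and 3.89 CPM in the control mice. The groups again did not overlap, but both spread widely, and its log2 fold change was -1.02 (SE 0.33, edgeR padj = 0.0887). miR-467d-5p (Mir467d, chr2:10507630-10507714), which has the same seed, had 1.15, 1.13 and 0.697 CPM against 2.53, 1.75 and 1.44 CPM, with a log2 fold change of -0.96 (SE 0.34, edgeR padj = 0.106).

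miR-669c-5p (Mir669c, chr2:10509296-10509404), the second most abundant signal in colon, had the smallest difference of the 11. It stood at 3.15, 4.57 and 3.52 CPM in the DSS mice and at 5.53, 5.50 and 6.39 CPM in the control mice, with a log2 fold change of -0.63 (SE 0.20, edgeR padj = 0.0887). The 3p arms went the same way. The signal of miR-466b-3p, miR-466c-3p, miR-466e-3p and miR-466p-3p had 0.358, 0.733 and 0.735 CPM in DSS mice and 1.33, 1.45 and 1.13 CPM in control mice (log2 fold change -1.05, SE 0.34, edgeR padj = 0.0887). Fold changes for miR-466d-3p and miR-669a-3p/miR-669o-3p were -1.03 and -0.94 on the log2 scale, with edgeR padj of 0.0985 and 0.148. The DSS and control mice did not overlap for any of these 9 signals, whereas 16.1% of all rows tested had every DSS mouse below every control mouse. miR-669l-5p and miR-669o-5p, with 56 and 82 counts over the 6 colon libraries, overlapped between the groups (log2 fold changes -0.67 and -0.86, edgeR padj 0.481 and 0.376).

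**Figure D2:**
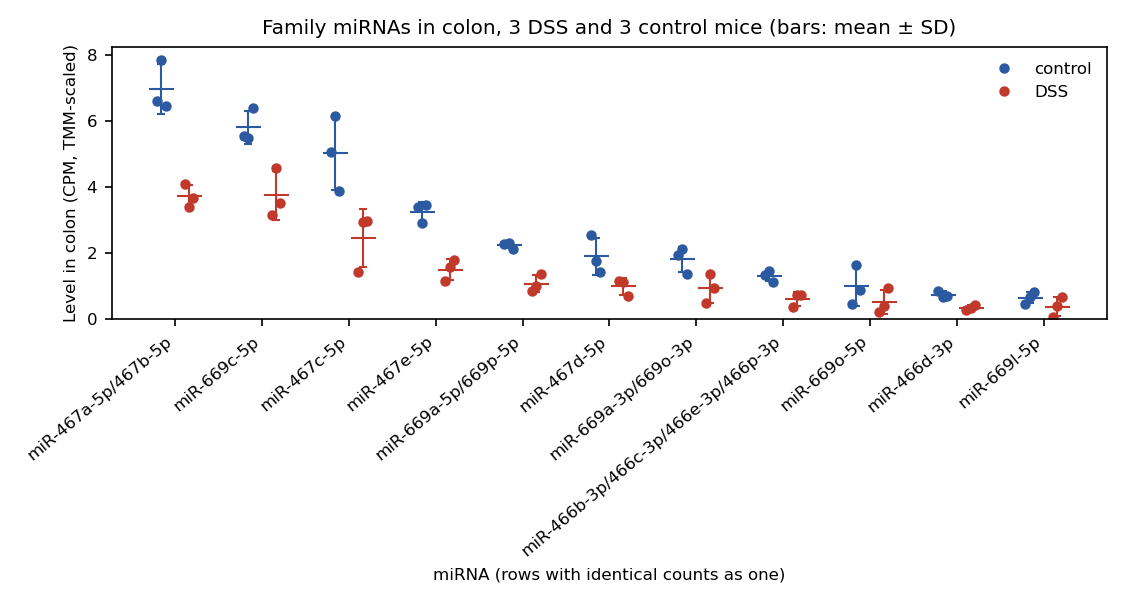
Level in colon of the 11 signals tested, in CPM scaled by TMM, ordered by mean level. Points are single mice, 3 controls (blue) and 3 DSS (red), and bars the mean ± SD. From miR-467a-5p/miR-467b-5p (control mean 6.97, DSS mean 3.71 CPM) to miR-466d-3p (0.740 and 0.350 CPM) the groups do not overlap, apart from miR-669o-5p, and they overlap again for miR-669l-5p.

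The filter keeps a sparse row more readily where its level is high in either group, so the counts over the members tested describe them and do not speak for the others. With no filter, 44 signals were counted in colon, of which 32 were lower and 12 higher in DSS, while 47.3% of all 1300 rows were lower. Among the 33 that the filter had left out, 21 were lower, with a median log2 fold change of -0.71. Their summed level was 3.58, 4.34 and 4.99 CPM in DSS mice 1, 7 and 9 and 9.20, 6.82 and 6.14 CPM in control mice 2, 4 and 8, with no overlap. Scaled by the total count alone they did overlap, at 3.32 to 6.42 CPM in DSS mice and 5.40 to 8.996 CPM in control mice.

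The calls in colon were close to the threshold. With identical rows of the table kept once, 2 signals were SDE, and miR-669a-5p/miR-669p-5p fell short (edgeR padj = 0.0527). The same signal fell short with no filter on low counts (edgeR padj = 0.0922), where 2 signals were also SDE. With upper-quartile factors, with total counts alone or with all 12 libraries in 1 fit no member was SDE, with RLE factors 1 signal remained (miR-467a-5p/miR-467b-5p), and leaving out 1 mouse gave 0 to 2 signals: 0 without control mouse 2, 4 or 8 or without DSS mouse 7, 1 without DSS mouse 1 and 2 without DSS mouse 9. Some of these losses were shared by the whole table. With all 12 libraries in 1 fit, and in each of the 4 fits that left out a mouse and called no member, edgeR called 0 rows of the table. It called 55 rows, 23 of them lower, with all colon libraries in the main fit, 35 with identical rows kept once, 16 with RLE factors and 8 with upper-quartile factors. With total counts alone it called 47 rows, of which 9 were lower. Without DSS mouse 1 it still called 44 rows, of which 24 were lower, while the family fell to 1 signal. The median log2 fold change stayed between -1.23 and -0.77 in all of these.

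Other miRNAs of the colon moved at the same time. Of the 9 epithelial miRNAs (the miR-200 family, miR-192, miR-194, miR-215 and miR-375), 8 were lower in DSS (47.6% of all rows tested were) and 4 were SDE and lower (4.24% of all rows), with a median log2 fold change of -1.08, and their summed level ranged over 55653 to 136222 CPM in DSS and 163013 to 204162 CPM in control. The 5 leukocyte miRNAs (miR-223-3p, both miR-142a arms, miR-150-5p and miR-155-5p) were all higher, 2 of them SDE, where 5.90% of all rows tested were SDE and higher, with a median of 1.29 and sums of 361 to 1209 CPM and 288 to 428 CPM. The 3 stromal miRNAs (miR-199a and miR-214-3p) were higher, 1 of them SDE, with sums of 5006 to 5705 CPM and 3492 to 3694 CPM. The 4 smooth muscle miRNAs had a median of -0.35 and none was SDE, the 3 erythroid miRNAs tested had a median of 0.09, and the 2 endothelial miRNAs (miR-126a) had a median of 0.44. No marker was at 0 in colon. The part of these cell populations in the lower level of the family was not tested.

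Dlk1-Dio3, another imprinted locus with a large miRNA cluster, gave a contrast within the same libraries. Of its 91 miRNAs counted, 60 were tested in colon, 59 were higher in DSS and 14 were SDE, all higher, against the 5.90% of all rows tested, with a median log2 fold change of 0.61. Its summed level was 4119 to 4905 CPM in DSS and 2695 to 3037 CPM in control, more than that of the family in every colon library. In blood 8 of its miRNAs were tested, of which 7 were lower in DSS and none was SDE, with a median of -0.66.

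In blood, no member was SDE, and 0% of the 484 rows tested were. limma also called no member. DESeq2 called 10 rows of the table but gave none of the members an adjusted p, so it bears on none of them. The filter passed 12 members (7 signals), and 6 of the 7 signals had a negative log2 fold change, with a median of -0.45 against -0.05 over all rows tested. The summed level of the 47 signals was 3.95, 6.06 and 6.23 CPM in DSS mice 1, 7 and 9 and 8.90, 7.89 and 6.07 CPM in control mice 2, 4 and 8, which overlapped. The arms differed in this respect. The 23 signals of the 5p arm summed to 2.16, 2.52 and 2.31 CPM in DSS mice and to 5.53, 3.74 and 3.73 CPM in control mice, with no overlap, while the 17 signals of the 3p arm summed to 1.31, 2.87 and 3.09 CPM and to 2.92, 3.28 and 1.83 CPM, with both groups over the same range. Scaled by the total count alone, the 5p arm overlapped by 1 library, at 2.37 to 2.87 CPM in DSS mice and 2.75 to 4.91 CPM in control mice. By family, scaled by TMM, the groups did not overlap for miR-467 (1.03 to 1.29 CPM in DSS mice and 1.80 to 3.59 CPM in control mice) or miR-669 (1.28 to 1.93 and 1.96 to 2.43 CPM). They overlapped for miR-466 (1.61 to 3.32 and 1.93 to 3.45 CPM) and for the sparse miR-297. Whether the separation goes with the arm or with the family was not tested. The split by arm was made after values had been seen and was given no test.

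One signal, miR-467a-5p/miR-467b-5p, had an unadjusted p under 0.05 in blood, where 8.68% of all rows tested were lower at that p. It stood at 0.378, 0.161 and 0.231 CPM in DSS mice 1, 7 and 9, that is 15, 5 and 5 counts, and at 1.30, 0.576 and 0.441 CPM in control mice 2, 4 and 8, that is 29, 10 and 13 counts. The groups did not overlap, as for 9.92% of all rows tested in that direction, and the log2 fold change was -1.53 (SE 0.55, edgeR padj = 0.360). Control mouse 2 was well above the other control mice, and without it the log2 fold change was -0.88 (edgeR padj = 0.794). miR-467c-5p had 9, 6 and 2 counts in DSS blood and 26, 7 and 14 in control blood, which overlapped, and it did not pass the filter.

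No marker miRNA was SDE in blood. Of all rows tested in blood, 55.0% were lower in DSS. All 9 epithelial miRNAs were lower in DSS (median -0.26, summed level 950 to 1123 CPM in DSS and 1129 to 1324 CPM in control), as were the 3 stromal ones (median -0.42) and the 1 endothelial and platelet miRNA tested (-1.45, with sums of 13.4 to 16.3 CPM and 31.0 to 57.3 CPM). Of the 4 smooth muscle miRNAs 3 were lower (median -0.50), while the 5 leukocyte and the 4 erythroid miRNAs had 2 lower each (medians 0.22 and -0.04). No marker was at 0 in blood, and their part in the level of the family was not tested.

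The other blood signals overlapped between the groups. miR-669c-5p had 0.503, 0.967 and 0.600 CPM in DSS mice and 1.21, 0.691 and 1.42 CPM in control mice (log2 fold change -0.71, SE 0.40, edgeR padj = 0.527). Its log2 fold change was -0.42 without control mouse 8 and -0.98 without DSS mouse 7. miR-467d-5p had a log2 fold change of -0.45 (SE 0.37), the miR-466b-3p signal one of -0.56 (SE 0.47) and miR-466g, which has no arm in its name, one of 0.07 (SE 0.43). Without DSS mouse 1, miR-467d-5p stood at -0.10, the miR-466b-3p signal at -0.11 and the median of the signals tested at -0.10. miR-669a-3p/miR-669o-3p stood at -0.05 (SE 0.55), and its sign turned with upper-quartile factors and with total counts. These signals had 6 to 42 counts per library, and the SE of their log2 fold changes, 0.37 to 0.55, was larger than that of the signals SDE in colon, 0.18 to 0.26.

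The 2 tissues were compared directly for their response. The difference between colon and blood in the log2 fold change of DSS against control was SDE for no member (edgeR padj of at most 0.05), as for 0% of the 680 rows tested over all libraries. No member reached an unadjusted p of 0.05 either, the lowest being 0.0811 for miR-669a-3p/miR-669o-3p, with a difference of -1.19 (SE 0.64, edgeR padj = 0.416), and DESeq2, which gave an adjusted p to 2 of the signals, called neither. For miR-467a-5p/miR-467b-5p the difference was 0.24 (SE 0.56, edgeR padj = 0.909).

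**Figure D3:**
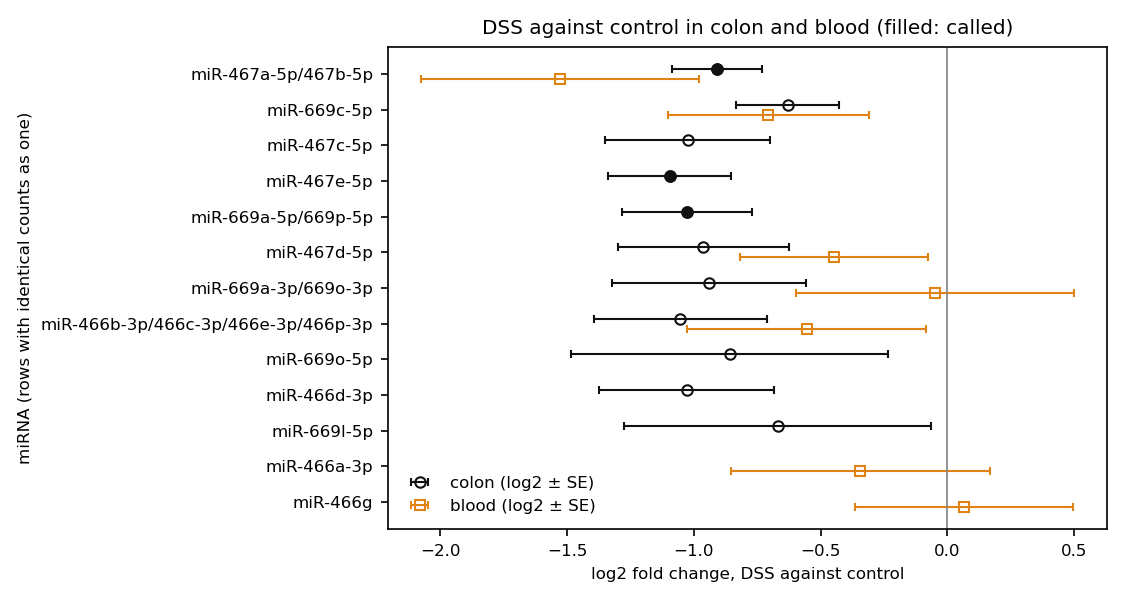
Log2 fold change of DSS against control with its SE for each signal tested in colon (circles) or blood (squares), with SDE signals filled. All 11 signals in colon lie between -1.09 and -0.63, with SE below 0.63, and the 7 in blood lie between -1.53 and 0.07.

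Between blood and colon, most miRNAs differed, and the family is described here against that background. In colon, 9 signals (11 members) were SDE and higher, of 15 tested, a share near the 51.0% of the 680 rows tested that were SDE and lower in blood. No member was SDE and higher in blood, where 37.6% of the rows were, and none was higher in blood at an unadjusted p under 0.05. The filter also bears on this count and on the arms in it, since 7 of the 9, all but miR-467a-5p/miR-467b-5p and miR-669c-5p, did not pass it in the blood libraries and were kept through colon, whereas sparse members with more counts in blood did not pass. The count describes these signals and does not speak for the others. The 9 were all 5p arms: miR-467a-5p/miR-467b-5p, miR-467c-5p, miR-467e-5p, miR-466h-5p, miR-669a-5p/miR-669p-5p, miR-669c-5p, miR-669h-5p, miR-669l-5p and miR-669o-5p. Of the 6 signals tested that were not SDE, 4 were 3p arms, 1 had no arm in its name (miR-466g) and 1 was a 5p arm (miR-467d-5p). The 5p arm took 80.7% of the family's counts in colon and 51.5% in blood, and the 3p arm 16.7% and 38.6%.

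The largest fitted difference was that of miR-467e-5p, which had 16, 28 and 46 counts in DSS colon and 51, 48 and 55 in control colon, but only 2 counts in blood, both in control mouse 2. In CPM, colon was 109 times higher (95% exact interval 29.7 to 901, from the counts summed over libraries). The fitted log2 difference of blood minus colon was -6.81 (SE 0.55, edgeR padj = 4.83e-08), although a fit on so few counts depends on its prior. miR-669o-5p (Mir669o, chr2:10514300-10514395) had 82 counts in colon and 3 in blood, a ratio of 24.3 (8.03 to 120) and a fitted difference of -4.98 (SE 0.86, edgeR padj = 9.29e-05). All 3 of its blood counts again came from control mouse 2, and without that mouse the fitted differences were -8.22 for miR-467e-5p and -6.82 for miR-669o-5p. miR-669l-5p (Mir669l, chr2:10468971-10469068) had 56 and 2 counts, a ratio of 24.9 (6.58 to 211) and a fitted difference of -4.17 (SE 0.71, edgeR padj = 4.72e-05), which was -5.33 without DSS mouse 1 and -5.28 without control mouse 2, the mice with its 2 blood counts. Some members below the filter had the same shape, such as miR-466c-5p with 56 and 2 counts and miR-669d-5p with 18 and 0. Others went the opposite way, as miR-466f-3p did with 20 counts in colon and 41 in blood (ratio 0.434, 0.241 to 0.758) and miR-466i-3p with 7 and 27 (ratio 0.231, 0.0848 to 0.543). These examples were chosen after their values had been seen.

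miR-467a-5p/miR-467b-5p and miR-467c-5p were also higher in colon, by factors of 6.28 (4.94 to 8.08) and 5.41 (4.14 to 7.16) in CPM. Their log2 differences were -2.73 (SE 0.29, edgeR padj = 3.09e-07) and -2.55 (SE 0.34, edgeR padj = 3.71e-06). For the remaining signals that were SDE, the log2 differences ran from -2.25 for miR-466h-5p to -1.62 for miR-669c-5p.

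miR-467d-5p stood apart from its closest relatives. It had 144 counts in colon and 128 in blood, a ratio of 1.00 (0.783 to 1.28), and a log2 difference of 0.01 (SE 0.24, edgeR padj = 0.967), although it shares its seed with miR-467c-5p. The ratio of miR-467c-5p to miR-467d-5p counts was 1.25, 2.60 and 4.28 in DSS colon and 2.0, 3.52 and 2.70 in control colon. In blood it was 0.529, 0.250 and 0.0952 in the DSS mice and 1.18, 0.389 and 0.538 in the control mice. Every colon library was above every blood library, and miR-467c-5p outnumbered miR-467d-5p in blood only in control mouse 2. This pair was chosen after its values had been seen, and the ratio was given no test.

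The signals tested that are not of the 5p arm were SDE in neither direction with TMM, although this depended on the scaling. The miR-466b-3p signal had 99 counts in colon and 104 in blood, with a log2 difference of 0.30 (SE 0.30, edgeR padj = 0.350), and miR-466a-3p had 67 and 56, with a difference of -0.01 (SE 0.42, edgeR padj = 0.986). miR-466g had 69 and 95 counts, with a difference of 0.64 (SE 0.32, edgeR padj = 0.0762). miR-669a-3p/miR-669o-3p had 141 and 75 counts, with a difference of -0.68 (SE 0.32, edgeR padj = 0.0537), and miR-466d-3p 56 and 29 counts, with a difference of -0.71 (SE 0.49, edgeR padj = 0.182). Composition did not order the members: over the 15 signals tested, the share of UG, GU, CA and AC dinucleotides and the log2 difference had a Pearson's r of 0.02 and a Spearman's rho of 0.11, given as a description since the signals share libraries and hairpins.

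**Figure D4:**
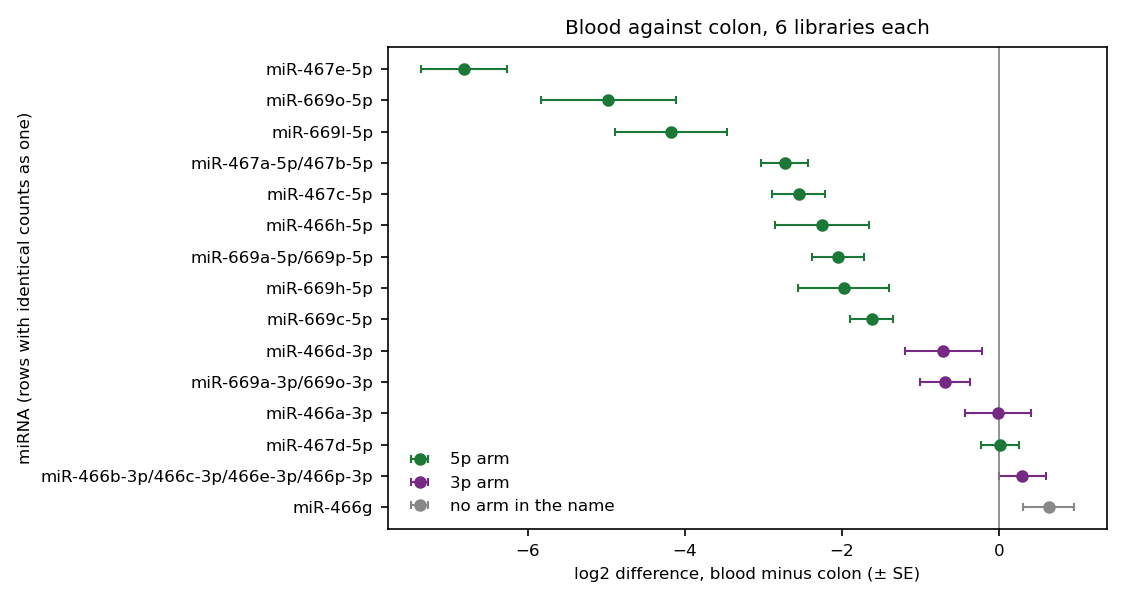
Log2 difference between blood and colon (blood minus colon) with its SE for the 15 signals tested over 6 blood and 6 colon libraries, coloured by arm. The 9 signals from miR-467e-5p (-6.81) to miR-669c-5p (-1.62) are all 5p arms, and the other 6 lie between -0.71 and 0.64.

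Levels between tissues depend on the scaling, since the miR-486-5p rows, which may share reads, hold most of the counts of a blood library. The median log2 difference of all rows was -0.86 with TMM, -0.75 with RLE factors, -1.59 with total counts alone and -0.14 after the miR-486-5p rows had been left out. Members near 0 crossed it with the scaling. miR-467d-5p stood at -0.72 with total counts and at -0.29 without the miR-486-5p rows, and miR-466g at -0.13 and 0.34. With total counts alone miR-467d-5p, miR-466d-3p (-1.48) and miR-669a-3p/miR-669o-3p (-1.44) were also SDE and higher in colon, and the last of these was so without the miR-486-5p rows as well (-0.97, edgeR padj = 0.0169). With RLE factors miR-466g was SDE and higher in blood (0.79, edgeR padj = 0.0355). miR-466i-3p, from a hairpin outside Sfmbt2 with 7 counts in colon and 27 in blood, did not pass the filter of the main fit. It was SDE and higher in blood in DESeq2 (2.33, padj = 0.0186), without the miR-486-5p rows (1.82, edgeR padj = 0.0280) and with no filter (1.92, edgeR padj = 0.0151). The miR-467e-5p, miR-467a-5p/miR-467b-5p, miR-467c-5p, miR-669a-5p/miR-669p-5p and miR-669c-5p signals were SDE and higher in colon under each of these scalings.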

How the data were processed

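Small RNA libraries of colon and blood from 6 mice were analysed. The authors trimmed and collapsed the reads and counted them against miRBase with the miRDeep2 quantifier, which can count 1 read for several hairpins. The deposited count table holds raw counts per miRNA. The deposited normalized tables, 1 per tissue, hold signal values that the authors made by dividing the counts by DESeq2 size factors, and were used only in an alternative. The labels name GRCm38 and DESeq2. Hairpins were matched by mature sequence to GENCODE M21.

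Rows were filtered with filterByExpr and scaled by TMM, and tested with glmQLFTest in edgeR 4.0.16 without covariates, per tissue for DSS against control and over all 12 libraries, with 4 group means, for blood against colon and for the difference in response. SE was taken as |log2 fold change| over the root of the F statistic. Alternatives were DESeq2 1.42.0, limma 3.58.1 on log2(normalized value + 1), other factors, filters and groupings, and each mouse left out. The tests were checked on simulated counts. The labels give blood and colon libraries the same mouse numbers, which pairs them. Deviations of the same mouse from its group means in both tissues correlated between -0.27 and 0.16 over 357 miRNAs.

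Named signals were those that were SDE, those with an unadjusted p under 0.05 and the 6 most abundant per tissue, the 5 largest tissue differences, and miR-467a-5p, miR-467b-5p, miR-467c-5p and miR-467e-5p in any case. Others are named as examples. The members, marker lists and comparison lists were chosen with earlier results of these data known. The libraries of a group came from separate mice.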

Additional observations from a re-analysis of the deposited data

How the results depend on the processing

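In colon, 3 signals were SDE, and 1 with RLE factors, 0 with upper-quartile factors, 0 with total counts alone, 0 with all 12 libraries in 1 fit, 0 with the grouping of the sample labels, and 0 to 2 with a mouse left out. With identical rows kept once, or with no filter on low counts, 2 were SDE, and miR-669a-5p/miR-669p-5p was not. The median log2 fold change of the signals tested was -1.23 to -0.87 with a mouse left out. With the grouping of the sample labels it was 0.30, and all but 1 of the 9 named signals reversed (miR-669c-5p stayed at -0.02): miR-466b-3p 0.30, miR-466d-3p 0.35, miR-467a-5p 0.46, miR-467c-5p 0.38, miR-467d-5p 0.75, miR-467e-5p 0.14, miR-669a-3p 0.33 and miR-669a-5p 0.28. All of these had an edgeR padj of 0.991.

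In blood no member was SDE under any alternative that gave the members an adjusted p. DESeq2 gave them none, so it has no count there. The median was -0.61 to -0.10 with a mouse left out (-0.10 without DSS mouse 1) and -0.19 with the grouping of the sample labels, under which miR-467a-5p stood at 1.38 and miR-466g at -0.28. miR-466g ranged from -0.11 to 0.44 and miR-669a-3p from -0.43 to 0.54 with a mouse left out. miR-669a-3p was 0.076 with upper-quartile factors, 0.20 with total counts alone, 0.21 with all 12 libraries in 1 fit and 0.016 in limma on the normalized values. Against TMM, total counts moved the median of all rows from 0.04 to 0.26 in colon and from -0.05 to 0.15 in blood, and the upper quartile moved it to -0.07 and 0.06.

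Between tissues, 9 signals were SDE and higher in colon, 15 in DESeq2, 18 with no filter, 12 with total counts alone and 6 of 13 tested without the miR-486-5p rows, and 9 to 11 with a mouse left out. None was higher in blood, against 1 in DESeq2, with RLE factors, without the miR-486-5p rows or with no filter, and 0 to 1 with a mouse left out. That signal was miR-466g with RLE factors or without control mouse 2, and miR-466i-3p in the other settings. With the replicate block (the mouse) 9 signals were higher in colon, none was higher in blood and none differed in its response, and the block changed no other call. Among tissue differences that were not SDE, miR-466b-3p moved from 0.30 to -0.46 with total counts alone. miR-466a-3p moved from -0.01 to 0.13 with RLE factors, to -0.76 with total counts alone and to -0.31 without the miR-486-5p rows. The changes of miR-467d-5p, miR-466g, miR-466d-3p and miR-669a-3p in sign or call are given with the scalings. The 5 largest tissue differences kept their sign and call wherever they were tested. With all mice, leaving aside the grouping of the sample labels, the 3 SDE signals in colon fell short in 14 combinations of a signal and a setting, and in 15 with a mouse left out, while miR-467c-5p passed in DESeq2.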
